A study of Xenopus laevis with 25 samples.

Results

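The 10 genes described here are the regulators that turn an epithelial progenitor into a multiciliated cell: MCIDAS, ccno, CDC20B, deup1, gmnc, foxj1, rfx2, rfx3, myb and e2f4. They were chosen by symbol, in any letter case, and all 10 were found in the authors' table of transcript names. They have 12 transcripts of 22891 in all, because rfx2 and rfx3 have 2 each, and 11 of the 12 passed the filter on low counts that left 16967 transcripts for testing. The gmnc transcript did not pass.

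Whole Xenopus embryos were sampled at 12, 13, 14, 15 and 16 hours post fertilization (hpf), and each hour has 2 libraries of the wild-type arm and 3 of the arm injected with a morpholino against RNF20. This makes 25 libraries of poly(A)-selected RNA. A morpholino is an antisense oligomer that blocks translation or splicing, and RNF20 is the ligase that attaches a single ubiquitin to histone H2B. The labels give no strain, dose, control oligomer or number of embryos per library, and their treatment field names morpholino injection for both arms.

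Multiciliated cells of the frog skin are selected among inner-layer cells that escape Notch signalling. Gmnc and Mcidas bind E2f4 or E2f5 with Dp1 and switch on the genes for massive centriole production, Ccno, Deup1 and Cdc20b act in that production, and Myb takes part at the same step. Foxj1 and the Rfx factors then drive the genes of the motile axoneme, and Foxj1 does so also in cells with a single motile cilium, such as those of the gastrocoel roof plate. The libraries were made from whole embryos, so in these bulk libraries fewer cells of a type and less RNA per cell cannot be told apart.

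Library totals ran from 12757700 to 36150600 estimated counts (median 18325200). Levels are given in CPM, a transcript's share of the library's counts after TMM scaling, and in TPM, a share that also allows for transcript length, where genes are compared with each other. The rnf20 RNA averaged 61.7 ± 13.5 CPM over the 10 wild-type libraries and 75.6 ± 11.9 CPM over the 15 morpholino libraries (SD). It does not check the arms, because a block of translation can leave the RNA as it was. Mitochondrial transcripts took 1.15% to 1.40% of the counts in wild type, 1.33% to 1.89% in morpholino replicates 1 and 2 and 2.31% to 2.89% in morpholino replicate 3. The 16 hpf library of morpholino replicate 3 stood farthest from its group (mean r with its group 0.852, TMM factor 0.673). The labels do not say whether replicates came from separate clutches, so the p-values measure only the spread between these samples. The main fit took the 25 libraries as independent, although same-numbered libraries of an arm deviated together across hours (r up to 0.535). To that extent the p-values of averages over hours can be too small.

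Per transcript length, rfx2 stood highest among the regulators in wild type at 12 hpf, at 97.3 ± 5.21 TPM (SD, n = 2, both transcripts summed). MCIDAS followed at 56.7 ± 16.3 TPM, foxj1 at 43.6 ± 3.70 TPM, e2f4 at 43.3 ± 2.32 TPM and ccno at 40.7 ± 7.65 TPM, and the ranges of foxj1, e2f4 and ccno overlapped each other. The range of MCIDAS overlapped those of foxj1 and ccno. CDC20B (17.4 ± 2.71 TPM) and myb (16.7 ± 1.90 TPM) overlapped below these, followed without overlap by deup1 (12.4 ± 3.70 TPM), rfx3 (3.89 ± 0.29 TPM) and gmnc (0.33 ± 0.20 TPM). By 16 hpf the order in wild type had changed. Rfx2 (70.8 ± 7.65 TPM), e2f4 (45.6 ± 0.80 TPM), foxj1 (33.5 ± 2.37 TPM) and myb (12.4 ± 0.66 TPM) were then the 4 highest, and MCIDAS (1.87 ± 1.01 TPM), ccno (2.86 ± 1.27 TPM), CDC20B (1.39 ± 1.02 TPM) and deup1 (3.45 ± 1.34 TPM) had means below that of rfx3 (4.06 ± 0.28 TPM), whose range overlapped that of deup1 only. In the morpholino arm at 16 hpf ccno (20.7 ± 14.7 TPM, SD, n = 3) held rank 4 and MCIDAS (11.4 ± 5.32 TPM) rank 6.

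**Figure D1:**
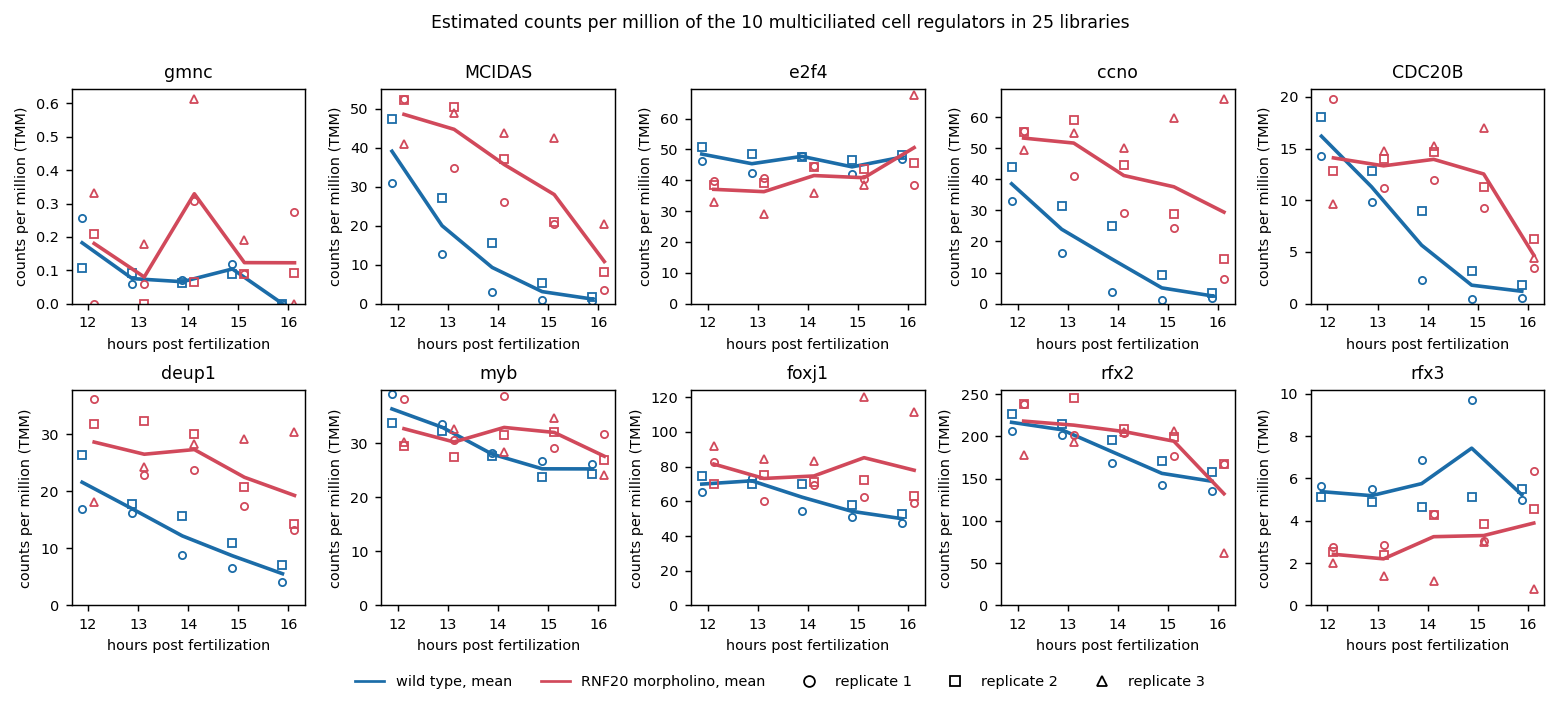
TMM-scaled CPM of each regulator (vertical axis, from 0) against hours post fertilization (horizontal axis) in the 25 libraries, with wild type in blue, RNF20 morpholino in red, lines through the group means and 1 marker shape per replicate number. The 2 transcripts of rfx2 and of rfx3 are summed. MCIDAS, ccno, CDC20B and deup1 run down steeply in wild type and stay higher with the morpholino. The means of rfx2 run close together in both arms, and e2f4 lies lower with the morpholino at 12, 13 and 14 hpf.

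Averaged over the 5 hours, 6 of the 11 tested transcripts rose in the morpholino arm (edgeR adjusted p under 0.05) and 0 fell. Among all tested transcripts 13.9% rose and 13.1% fell. The 6 are MCIDAS, ccno, CDC20B, deup1, foxj1 and the minor transcript of rfx2. With counts summed per symbol, MCIDAS, ccno, CDC20B, deup1 and foxj1 rose and rfx3 fell (-0.95, edgeR adjusted p = 0.00973). Summed rfx2 was not called (0.08, adjusted p = 0.62). Of all symbols and unnamed transcripts, 17.2% rose and 17.4% fell in that fit. The 11 tested transcripts had a median log2 difference of 0.81, or 0.58 without the minor rfx3 transcript. That transcript is listed at or near 0 in 17 of 25 libraries and its fitted value has no meaning. Over all transcripts the median was -0.003. The 4 largest differences are those of MCIDAS and the genes of the centriole production step, ccno, CDC20B and deup1.

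At the top of the pathway gmnc, the geminin relative that acts upstream of MCIDAS, was close to undetected. It had 17 counts in all 10 wild-type libraries and 46 counts in all 15 morpholino libraries, with 2 and 3 libraries at 0. With unscaled library totals that is 0.0926 CPM (exact 95% Poisson interval 0.0539 to 0.148) and 0.162 CPM (0.119 to 0.217), intervals that cover counting error only. The highest library, morpholino replicate 3 at 14 hpf, held 10 counts. The transcript did not pass the filter and was not tested.

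MCIDAS, the coactivator that is sufficient to start the multiciliated programme in frog skin, stood at 30.9 and 47.3 CPM in the 2 wild-type libraries at 12 hpf, 12.9 and 27.2 CPM at 13 hpf, 3.04 and 15.6 CPM at 14 hpf, 0.836 and 5.36 CPM at 15 hpf and 0.740 and 1.66 CPM at 16 hpf (replicates 1 and 2). In the morpholino arm replicates 1, 2 and 3 held 52.6, 52.2 and 40.9 CPM at 12 hpf, 34.9, 50.4 and 48.9 CPM at 13 hpf, 26.1, 37.2 and 43.9 CPM at 14 hpf, 20.6, 21.0 and 42.5 CPM at 15 hpf and 3.64, 8.26 and 20.6 CPM at 16 hpf. The arms overlapped at 12 hpf, and from 13 hpf on each morpholino library lay above both wild-type libraries. The ratio of the arms' mean CPM went from 1.24 at 12 hpf through 2.23 and 3.84 to 9.04 at both 15 and 16 hpf. At 16 hpf it was 4.97 without morpholino replicate 3, the library that stood apart. The average log2 difference was 1.95 ± 0.35 (SE, edgeR adjusted p = 0.00109).

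Ccno, a cyclin-like protein needed to amplify and dock centrioles, also lost most of its level in wild type. Wild-type replicates 1 and 2 held 33.1 and 43.9 CPM at 12 hpf, 16.4 and 31.5 CPM at 13 hpf, 3.89 and 24.9 CPM at 14 hpf, 1.04 and 9.13 CPM at 15 hpf and 1.73 and 3.31 CPM at 16 hpf. Morpholino replicates 1, 2 and 3 held 55.4, 55.0 and 49.3 CPM at 12 hpf, 41.0, 59.1 and 54.7 CPM at 13 hpf, 29.0, 44.5 and 50.0 CPM at 14 hpf, 24.3, 28.8 and 59.6 CPM at 15 hpf and 8.05, 14.3 and 65.9 CPM at 16 hpf. At all 5 hours the 3 morpholino libraries lay above the 2 wild-type libraries, and replicate 3 was the highest from 14 hpf on. The mean ratio was 1.38 at 12 hpf and 11.7 at 16 hpf, or 4.45 at 16 hpf without morpholino replicate 3. Averaged over hours, ccno stood higher by 1.91 ± 0.40 (log2, SE, edgeR adjusted p = 0.00328).

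CDC20B, a Cdc20 relative found with the structures on which centrioles are made, lay at lower counts. In wild type it held 14.3 and 18.1 CPM at 12 hpf, 9.81 and 12.8 CPM at 13 hpf, 2.33 and 8.98 CPM at 14 hpf, 0.438 and 3.15 CPM at 15 hpf and 0.575 and 1.83 CPM at 16 hpf. With the morpholino it held 19.8, 12.8 and 9.62 CPM at 12 hpf, 11.2, 14.0 and 14.8 CPM at 13 hpf, 11.9, 14.7 and 15.2 CPM at 14 hpf, 9.30, 11.3 and 17.0 CPM at 15 hpf and 3.42, 6.27 and 4.40 CPM at 16 hpf. The arms overlapped at 12 and 13 hpf and separated from 14 hpf on. The morpholino mean of CDC20B stayed between 12.5 and 14.1 CPM until 15 hpf and was 4.70 CPM at 16 hpf. The average log2 difference was 1.23 ± 0.28 (SE, edgeR adjusted p = 0.0061).

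Deup1, the scaffold of the deuterosome on which most centrioles of a multiciliated cell are assembled, changed by less and had the tightest error of the 4. Its wild-type libraries held 16.9 and 26.3 CPM at 12 hpf, 16.1 and 17.7 CPM at 13 hpf, 8.77 and 15.6 CPM at 14 hpf, 6.49 and 10.9 CPM at 15 hpf and 4.03 and 7.08 CPM at 16 hpf. The morpholino libraries held 36.1, 31.7 and 18.0 CPM at 12 hpf, 22.8, 32.3 and 24.2 CPM at 13 hpf, 23.6, 30.0 and 28.3 CPM at 14 hpf, 17.4, 20.7 and 29.2 CPM at 15 hpf and 13.1, 14.3 and 30.4 CPM at 16 hpf. Only the 12 hpf groups overlapped. The average log2 difference of deup1 was 1.08 ± 0.18 (SE, edgeR adjusted p = 8.7e-04), and its mean ratio was 1.33 at 12 hpf and 3.47 at 16 hpf, or 2.46 at 16 hpf without morpholino replicate 3.

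E2f4, the E2F factor that Gmnc and Mcidas bind, was level in wild type, from 42.0 to 50.6 CPM (median 47.3 CPM, n = 10). The 15 morpholino libraries ranged from 28.9 to 67.8 CPM with a median of 39.8 CPM, and the highest was replicate 3 at 16 hpf. Each morpholino library lay below both wild-type libraries at 12, 13 and 14 hpf, and the arms overlapped at 15 and 16 hpf. The average log2 difference of -0.19 ± 0.09 was not called (SE, edgeR adjusted p = 0.122). It was called at -0.24 without the 16 hpf library of morpholino replicate 3 (edgeR adjusted p = 0.0132).

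Myb, a transcription factor of progenitor and multiciliated cells, differed little between the arms. It ranged from 23.8 to 39.0 CPM in wild type (median 28.0 CPM) and from 24.1 to 38.8 CPM with the morpholino (median 30.5 CPM). All morpholino libraries lay above wild type at 14 and 15 hpf, and the arms overlapped at the other hours. The average log2 difference was 0.09 ± 0.08 (SE, edgeR adjusted p = 0.418, 95% confidence interval -0.07 to 0.24).

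Foxj1, the factor for motile axonemes, held 65.3 and 74.6 CPM in wild type at 12 hpf, 73.6 and 70.1 CPM at 13 hpf, 54.7 and 70.1 CPM at 14 hpf, 50.7 and 57.7 CPM at 15 hpf and 47.5 and 52.5 CPM at 16 hpf. The morpholino libraries held 82.6, 69.8 and 92.0 CPM at 12 hpf, 60.1, 75.1 and 84.4 CPM at 13 hpf, 69.6, 71.2 and 83.1 CPM at 14 hpf, 62.7, 72.4 and 120.4 CPM at 15 hpf and 59.0, 63.2 and 111.6 CPM at 16 hpf. On this TMM-scaled scale replicate 3 was the highest morpholino library at each hour, and the arms separated only at 15 and 16 hpf. In TPM at 16 hpf replicate 3 was the lowest of the 3 (37.2 TPM, beside 38.8 and 41.6 TPM). The average log2 difference was 0.36 ± 0.12 (SE, edgeR adjusted p = 0.0392). This call was lost when all libraries of any 1 hour were left out (edgeR adjusted p from 0.0655 to 0.111). Leaving out any of 14 libraries ended this call, with adjusted p from 0.0531 to 0.0940. These were both wild-type libraries at 12, 13, 15 and 16 hpf, wild-type replicate 1 at 14 hpf, morpholino replicate 2 at 13 hpf and morpholino replicate 3 at 12, 13, 14 and 15 hpf, and without replicate 3 at any hour the difference was 0.17 (edgeR adjusted p = 0.0543).

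Rfx2, which with Foxj1 drives ciliary genes in frog multiciliated cells, has a major and a minor transcript. The major transcript ranged from 129.1 to 217.2 CPM in wild type (median 178.8 CPM) and from 60.4 to 236.3 CPM with the morpholino (median 190.2 CPM), with its lowest value in replicate 3 at 16 hpf. Its average log2 difference was 0.05 ± 0.13 (SE, edgeR adjusted p = 0.836). The minor transcript ranged from 4.17 to 9.34 CPM in wild type and from 1.44 to 17.5 CPM with the morpholino, and lay above wild type in each morpholino library at 12 to 15 hpf but not at 16 hpf. It rose by 0.81 ± 0.23 (log2, SE, edgeR adjusted p = 0.0184). Leaving out wild-type replicate 1 at 12 hpf ended this call (adjusted p = 0.0516). It was also lost without all libraries at 12, 13, 14 or 15 hpf (edgeR adjusted p = 0.0599, 0.0844, 0.0771 and 0.0809). At 14 to 16 hpf alone it was not called either (edgeR adjusted p = 0.156). The minor transcript made up 2.22% to 5.13% of the rfx2 TPM in wild type and 2.29% to 9.05% with the morpholino, and kallisto divides reads between such transcripts, so the minor level is an estimate. Summed, rfx2 differed by 0.08 (log2, edgeR adjusted p = 0.62).

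Rfx3, the relative of rfx2 that acts on ciliary genes in vertebrates, stood lower in the morpholino arm when its transcripts were summed. Its 2 transcripts exchange reads from library to library: the minor one is listed at or near 0 in 7 of 10 wild-type and 10 of 15 morpholino libraries, and the major one at 0 in 2 morpholino libraries. Summed over both, wild type held 5.63 and 5.12 CPM at 12 hpf, 5.49 and 4.88 CPM at 13 hpf, 6.86 and 4.64 CPM at 14 hpf, 9.71 and 5.14 CPM at 15 hpf and 4.97 and 5.48 CPM at 16 hpf. The morpholino libraries held 2.75, 2.51 and 1.99 CPM at 12 hpf, 2.84, 2.38 and 1.38 CPM at 13 hpf, 4.33, 4.25 and 1.17 CPM at 14 hpf, 3.04, 3.87 and 2.99 CPM at 15 hpf and 6.34, 4.57 and 0.762 CPM at 16 hpf. At 12 to 15 hpf each morpholino library lay below both wild-type libraries. With counts summed per symbol rfx3 fell by 0.95 ± 0.25 (log2, SE, edgeR adjusted p = 0.00973), where 17.2% of 14151 symbols and unnamed transcripts rose and 17.4% fell. The major transcript alone stood at -0.97 ± 0.53 (SE, edgeR adjusted p = 0.171).

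The number of regulator transcripts, of 12, whose morpholino libraries all lay above wild type was 2 at 12 hpf, 4 at 13 hpf, 6 at 14 hpf, 8 at 15 hpf and 5 at 16 hpf. Over the 16967 tested transcripts the same relation held for 16.3%, 23.8%, 18.7%, 17.3% and 12.6%. The number below was 2 at 12, 13 and 14 hpf, 1 at 15 hpf and 0 at 16 hpf, where all transcripts gave 17.5%, 26.2%, 20.3%, 21.6% and 19%.

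**Figure D2:**
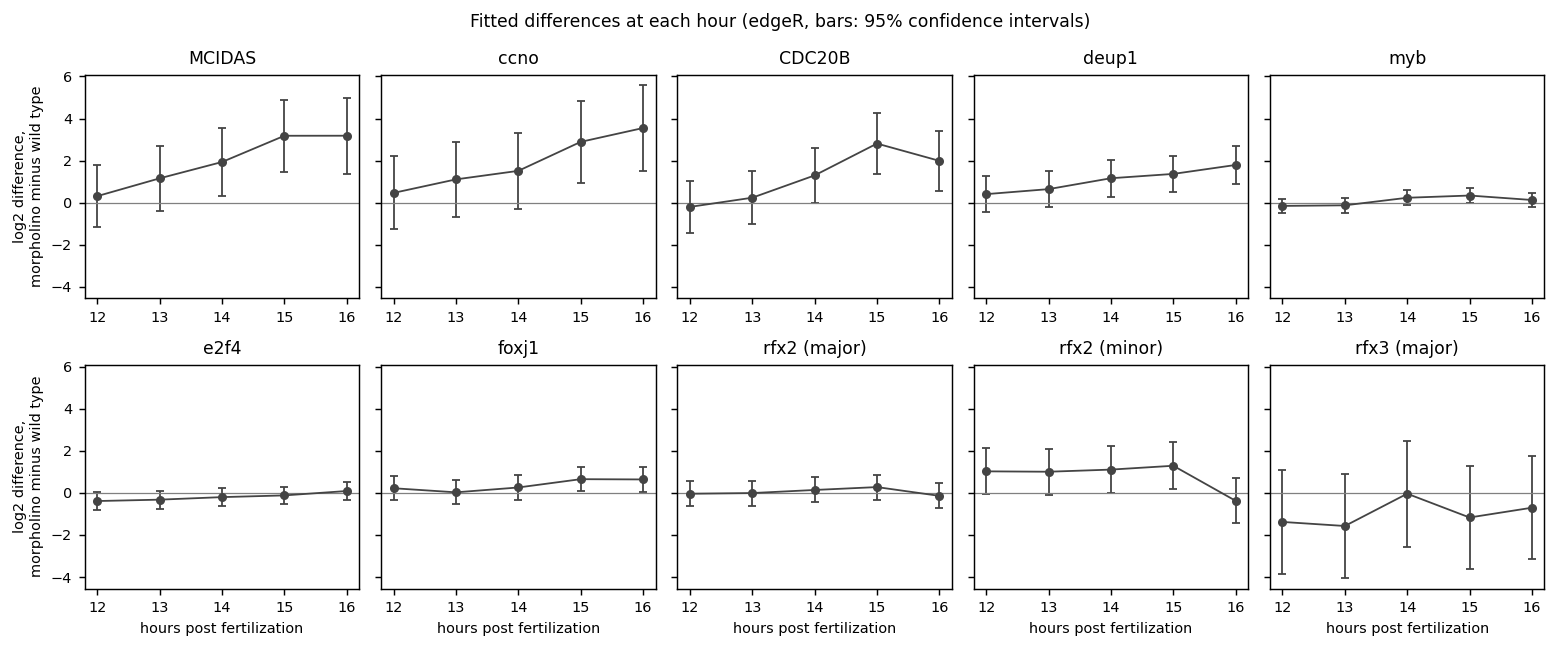
Fitted log2 difference, morpholino minus wild type (vertical axis, shared), against hours post fertilization for the 10 tested regulator transcripts with a usable fit, with 95% confidence intervals as bars. MCIDAS runs from 0.31 at 12 hpf to 3.18 at 16 hpf and ccno from 0.47 to 3.55, while myb and the major rfx2 transcript stay near 0.

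Hour by hour, the fitted log2 difference of MCIDAS was 0.31, 1.16, 1.93, 3.18 and 3.18 from 12 to 16 hpf. Ccno stood at 0.47, 1.11, 1.51, 2.89 and 3.55, deup1 at 0.41, 0.64, 1.16, 1.37 and 1.79, and CDC20B at -0.20, 0.24, 1.30, 2.81 and 1.99. Taken alone, no hour gave a call: 0 of 55 regulator and hour pairs passed with edgeR, and 13 had an unadjusted p under 0.05. The background of adjusted calls was as low, with 0.0472%, 0.0884%, 0.124%, 0.0943% and 0.2% of all transcripts called from 12 to 16 hpf. For the unadjusted threshold the share of all transcripts was not computed. DESeq2 called 6 of the 55, which were MCIDAS, ccno and CDC20B at 15 hpf and MCIDAS, ccno and deup1 at 16 hpf (adjusted p from 0.00159 to 0.0346), where it called 1.41% and 1.82% of all transcripts. limma-voom called 1, CDC20B at 15 hpf (adjusted p = 0.0417). In the authors' deposited tables, made with sleuth, deup1 passed a q-value of 0.05 at 13 hpf (log2 difference 0.63, q = 0.043) and at 14 hpf (1.23, q = 0.0285), and MCIDAS, ccno and CDC20B passed at no hour. Of all transcripts in them, 911 of 15645 passed at 13 hpf and 167 of 15748 at 14 hpf.

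MCIDAS, ccno, CDC20B and deup1 fell over the 5 hours in wild type, at -1.28 ± 0.21, -1.01 ± 0.23, -1.02 ± 0.17 and -0.49 ± 0.10 log2 units per hour (SE, edgeR adjusted p = 0.00802, 0.0297, 0.00802 and 0.0215). They are 4 of 11 tested regulator transcripts, and 0.996% of all transcripts fell in the same way. MCIDAS kept 2.39% of its 12 hpf level at 16 hpf in wild-type replicate 1 and 3.50% in replicate 2, ccno 5.21% and 7.54%, CDC20B 4.02% and 10.1%, and deup1 23.9% and 27.0%. The other 7 transcripts were not called, among them foxj1 (-0.14 per hour, adjusted p = 0.259) and myb (-0.14 per hour, adjusted p = 0.0713). With counts summed per symbol myb was called (-0.15 per hour, edgeR adjusted p = 0.0471).

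The calls on these wild-type slopes rest on few libraries. Without wild-type replicate 2 at 12 hpf all 4 were lost (edgeR adjusted p = 0.0629 for MCIDAS and CDC20B, 0.192 for ccno, 0.209 for deup1), and likewise without wild-type replicate 1 at 16 hpf (0.143, 0.142, 0.306 and 0.253 in the same order). The ccno call was also lost without wild-type replicate 1 at 12 hpf (0.0841), replicate 2 at 13 hpf (0.0809), replicate 1 at 15 hpf (0.0628) or replicate 2 at 16 hpf (0.105), and that of deup1 without replicate 1 at 12 hpf (0.0501), replicate 2 at 13 hpf (0.0621) or replicate 1 at 15 hpf (0.0679). Over all these omissions the slope of MCIDAS stayed between -1.47 and -1.18 and that of deup1 between -0.58 and -0.42. Without the 5 libraries of morpholino replicate 3, 7 of the 11 fell in wild type, with foxj1, myb and the major rfx2 transcript added, and 19.9% of all transcripts did.

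**Figure D3:**
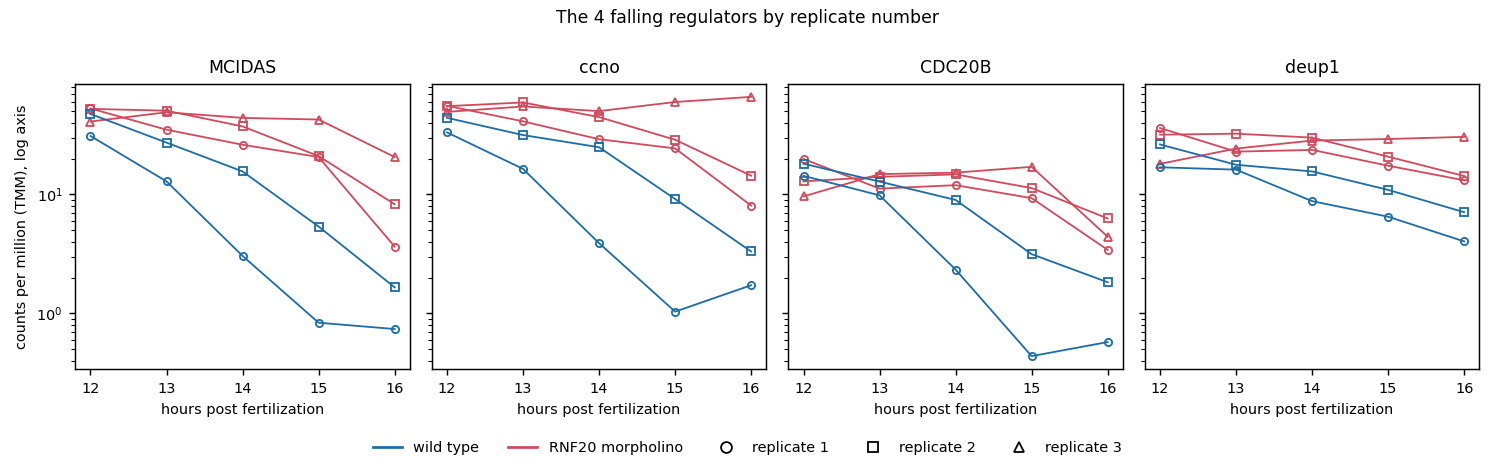
TMM-scaled CPM on a log axis against hours post fertilization for MCIDAS, ccno, CDC20B and deup1, with libraries of 1 arm and 1 replicate number joined by a line. Wild-type replicate 1 lies below replicate 2 at each hour, and morpholino replicate 3 ends highest for MCIDAS, ccno and deup1.

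In the morpholino arm only MCIDAS of the 11 fell, at -0.50 ± 0.15 per hour (SE, edgeR adjusted p = 0.0262), where 7.25% of all transcripts fell and 10.4% rose. This call was lost without morpholino replicate 2 or 3 at 12 hpf (adjusted p = 0.062 and 0.0563) or replicate 1 or 2 at 16 hpf (0.073 and 0.0704). The replicates of this arm had unlike courses: at 16 hpf MCIDAS kept 6.91%, 15.8% and 50.3% of its 12 hpf level in replicates 1, 2 and 3, ccno 14.5%, 26.1% and 133.7%, and deup1 36.4%, 45.0% and 168.6%. CDC20B kept 17.2%, 48.8% and 45.8%. These shares are of TMM-scaled CPM. In TPM replicate 3 went from 45.9 to 37.3 TPM for ccno and from 9.19 to 9.40 TPM for deup1. Without the 16 hpf library of replicate 3, ccno (-0.49 per hour) and deup1 (-0.24 per hour) were also called (edgeR adjusted p = 0.0251 and 0.0254). CDC20B (-0.32 per hour) and the minor rfx2 transcript (-0.30 per hour) missed the threshold in the main fit (edgeR adjusted p = 0.0714 and 0.0522). DESeq2 called both (adjusted p = 0.04 and 0.0227), as did limma-voom (0.0443 and 0.0361). DESeq2 also called the major rfx2 transcript lower and e2f4 higher over the hours (adjusted p = 0.0404 and 0.0322).

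The difference between the slopes was tested itself. It was 0.78 log2 units per hour for MCIDAS (95% confidence interval 0.28 to 1.28), 0.79 for ccno (0.23 to 1.36), 0.70 for CDC20B (0.28 to 1.11) and 0.35 for deup1 (0.08 to 0.62), so each fitted decline was slower with the morpholino. None of the 11 passed in edgeR after adjustment, as 0 of the 16967 transcripts (0%) did. At an unadjusted p under 0.05, 4 of the 11 passed, but the share of all transcripts at that threshold was not computed. After adjustment DESeq2 and limma-voom called 0 of the 11.

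Since these regulators decline with time in wild type, the morpholino libraries were also set against earlier wild-type libraries. Restricted to 14 to 16 hpf, the hours that have wild type 2 hours younger, the same-hour log2 differences were 2.77 for MCIDAS, 2.65 for ccno, 2.03 for CDC20B and 1.44 for deup1, 4 of 11 called where 4.58% of all transcripts rose. Morpholino libraries of 13 to 16 hpf against wild type 1 hour earlier cover other hours and are not matched to these values. They stood at 1.10, 1.28, 0.64 and 0.75, and only deup1 was called (edgeR adjusted p = 0.0368, against 0.0837, 0.0837 and 0.211), where 3.36% of all transcripts rose. Over the same 14 to 16 hpf morpholino libraries, wild type 2 hours earlier gave 0.18 (95% confidence interval -0.68 to 1.05), 0.59 (-0.42 to 1.60), -0.11 (-0.84 to 0.62) and 0.47 (-0.02 to 0.96). None of the 11 was called there, and 1.2% of all transcripts rose. Of the other regulators, foxj1 went from 0.52 at 14 to 16 hpf with same-hour wild type to 0.22 with wild type 2 hours younger. In the same comparison e2f4 went from -0.08 to -0.10 and myb from 0.23 to -0.07. The major rfx2 transcript went from 0.09 to -0.24, the minor one from 0.67 to 0.49 and summed rfx3 from -0.79 to -0.64. None of these values was called with either choice. In the fit on counts summed per symbol, which gave the rfx3 values, foxj1 was called at 14 to 16 hpf with same-hour wild type (0.52, edgeR adjusted p = 0.0384). Whether the morpholino embryos were younger in stage than their hour was not tested.

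**Figure D4:**
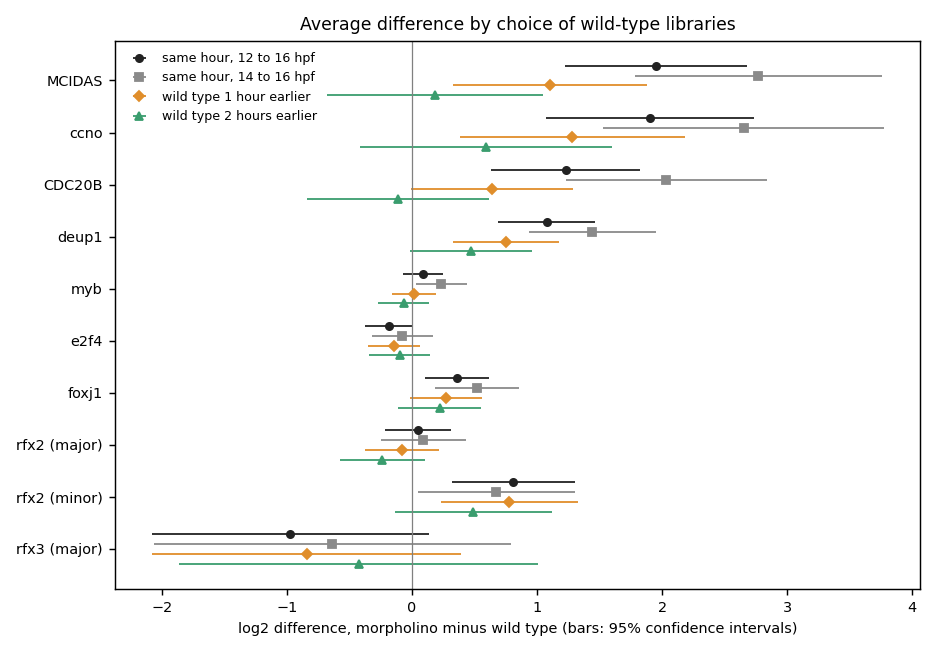
Average log2 difference, morpholino minus wild type (horizontal axis, bars: 95% confidence intervals), of 10 regulator transcripts with 4 choices of wild-type libraries. The morpholino hours differ between choices. MCIDAS stands at 1.95 with same-hour wild type over 12 to 16 hpf and at 1.10 with wild type 1 hour earlier over 13 to 16 hpf, and over 14 to 16 hpf at 2.77 with same-hour wild type and 0.18 with wild type 2 hours earlier.

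Without the 5 libraries of morpholino replicate 3, 6 of the 11 rose and 1 fell, where 17.7% of all transcripts rose and 19.1% fell. The major rfx2 transcript was then called (0.16, edgeR adjusted p = 0.0403) and e2f4 fell by 0.17 (log2, adjusted p = 0.00913), while foxj1 was lost. MCIDAS, ccno, CDC20B, deup1 and the minor rfx2 transcript stayed called. When the libraries of each arm and replicate number were summed over hours to 5 sums, none of the 11 and 0% of all 18123 transcripts were called. The log2 differences were then 1.19 for MCIDAS, 1.32 for ccno, 0.76 for CDC20B and 0.93 for deup1 (edgeR adjusted p = 0.454 for each). The sums take each replicate number of an arm as 1 sample, whereas the main fit took its hours as independent.

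MCIDAS, ccno and CDC20B are neighbours. In the RefSeq annotation of Xenopus laevis v10.1 the L copy has the order mtrex, dhx29, ccno, mcidas, cdc20b, gpx8, gzmak, and the S copy has mtrex, a long noncoding RNA, ccno, mcidas, gpx8, gzmak. Of the genes around the 3 regulators, MTREX, an RNA helicase of the nuclear exosome, rose by 0.46 ± 0.14 (log2, SE, edgeR adjusted p = 0.0212). Dhx29 stood at 0.09 ± 0.10 (adjusted p = 0.497), and gpx8, which follows cdc20b in the L copy, fell by 0.25 ± 0.09 (adjusted p = 0.0381). Gzmak was too low to test. The wild-type slopes of MTREX, dhx29 and gpx8 were -0.10, -0.02 and 0.09 log2 units per hour, none called (edgeR adjusted p from 0.304 to 0.877). Per TPM, ccno stood at 0.676 to 0.781 of MCIDAS in wild type at 12 hpf and at 1.46 to 1.70 at 16 hpf, and at 0.767 to 0.877 and 1.27 to 2.33 with the morpholino. CDC20B stood at 0.283 to 0.343 of MCIDAS in wild type at 12 hpf and at 0.174 to 0.279 with the morpholino. At 16 hpf these ranges were 0.576 to 0.817 and 0.158 to 0.696 and overlapped. RefSeq lists an L and an S copy for MCIDAS, ccno, gmnc, foxj1, rfx3, myb and e2f4 and 1 copy for CDC20B, deup1 and rfx2. The transcript identifiers carry the Xenopus tropicalis prefix, while the series is labelled Xenopus laevis. If the embryos were Xenopus laevis, reads of both copies would be counted on 1 transcript.

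Over the 25 libraries the log2 CPM of ccno had the highest Pearson correlation with MCIDAS of 12449 transcripts (r = 0.978), CDC20B ranked 3 (r = 0.959) and deup1 ranked 9 (r = 0.942), while foxj1 ranked 912 (r = 0.730). By Spearman's rho they ranked lower, with ccno at 187.5 (rho = 0.893), CDC20B at 99.5 (0.909), deup1 at 124 (0.905) and foxj1 at 2090 (0.742). The transcripts with a symbol outside the group that were most like MCIDAS by Pearson's r were klf2 (r = 0.960), st6galnac2 (0.948), pkdcc.2 (0.944), kdm3a (0.944) and sall1 (0.943). Each of the 5 rose in the morpholino arm, from 0.28 for kdm3a to 0.99 for klf2 (log2, edgeR adjusted p from 0.00536 to 0.0124). They were picked for likeness to MCIDAS across both arms, so this rise is not a separate result. Most like foxj1 were ccdc14 (r = 0.922), sf3b4 (0.922), pip5k1a (0.922), kbtbd4 (0.909) and ubqln4 (0.908). The libraries share arm, hour and depth, so these values describe likeness only.

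Among 38 tested transcripts of centriole assembly genes, which encode the parts that duplicate or amplify centrioles, 7 rose and 3 fell, with a median of 0.14, beside 13.9% and 13.1% of all transcripts. Pcm1, the main protein of centriolar satellites, rose from 107.4 to 204.5 CPM (0.96 ± 0.07, SE, edgeR adjusted p = 9.03e-08), and stayed called against wild type 2 hours earlier (0.63, adjusted p = 4.38e-04). The 2 transcripts of stil, which recruits cartwheel proteins to a new centriole, rose by 0.55 and 0.57 (adjusted p = 0.00396 and 0.00462). With wild type 2 hours younger they were at 0.05 and -0.05. In wild type 11 of these 38 transcripts fell over the hours, where 0.996% of all transcripts did. In the morpholino arm 7 of the 38 fell and 0 rose, beside 7.25% and 10.4% of all transcripts.

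Of 73 tested transcripts of motile cilium genes, the axonemal parts and assembly factors that Foxj1 and the Rfx factors act on, 1 rose and 18 fell, with a median of -0.27, where 13.9% and 13.1% of all transcripts did. The number that fell was 31 without morpholino replicate 1 at 12 hpf, 8 without the 13 hpf libraries, 4 at 14 to 16 hpf alone and 0 with 5 sums over hours. In the same settings, in order, 15.7%, 4.64%, 3.6% and 0% of all transcripts fell. Wdr78, a part of an inner dynein arm, fell by 0.81 ± 0.14 (SE, edgeR adjusted p = 7.95e-04). Spag1, a dynein assembly factor, has transcripts that moved apart, at 0.56 ± 0.08 and -0.53 ± 0.07 (adjusted p = 1.15e-04 and 1.78e-04). In the morpholino arm 19 of the 73 rose over the hours and 0 fell, beside 10.4% and 7.25% of all transcripts. Against wild type 2 hours earlier 1 of the 73 was called higher and 0 lower, with a median of -0.08, where 1.2% of all transcripts rose and 1.03% fell.

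**Figure D5:**
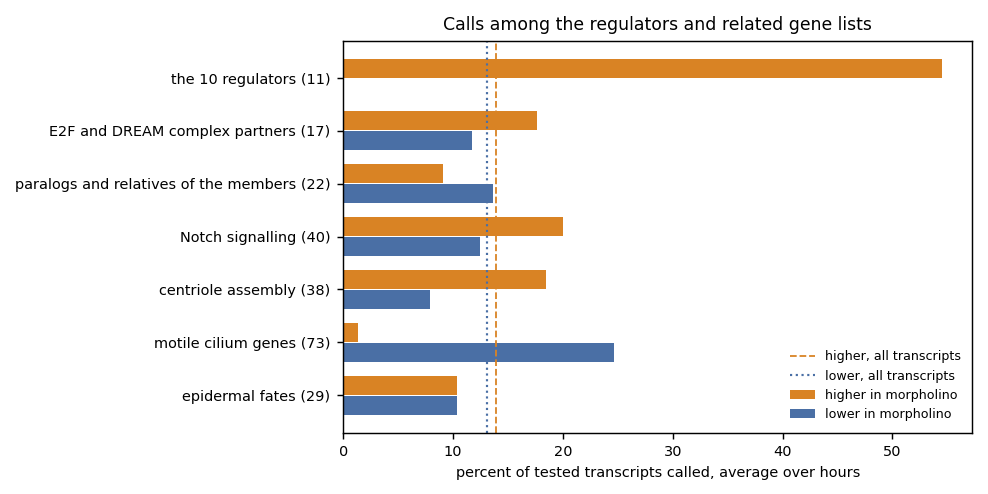
Percent of tested transcripts called higher (orange) or lower (blue) in the morpholino arm, averaged over hours (edgeR), for the regulators and 6 related gene lists, with the number tested in parentheses and the share over all transcripts as dashed and dotted lines. The regulators, counted as transcripts, have 6 of 11 higher and 0 lower, and the motile cilium genes 1 of 73 higher and 18 lower.

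For the partners of E2f4 in E2F and DREAM complexes, 3 of 17 tested transcripts rose and 2 fell (median 0.17), which is 17.6% and 11.8% beside 13.9% and 13.1% of all transcripts. Lin54, the DNA-binding subunit of the MuvB core, fell by 0.66 ± 0.06 (SE, edgeR adjusted p = 1.89e-06), and e2f8 and e2f7, atypical E2F repressors, rose by 0.67 ± 0.19 and 0.56 ± 0.18 (adjusted p = 0.0162 and 0.0277). Among 22 transcripts of paralogs and relatives, 2 rose and 3 fell (median -0.02), or 9.09% and 13.6%. Gmnn, the geminin to which Mcidas and Gmnc are related, rose by 0.70 ± 0.22 and its binding partner cdt1 by 0.66 ± 0.21, and rfx5 fell by 0.39 ± 0.10 (SE, edgeR adjusted p = 0.0266, 0.0286 and 0.00825). Leaving out wild-type replicate 1 at any 1 hour left 0 of the paralogs and relatives called higher. It left 1 of the E2F and DREAM partners, where 8.53% to 9.22% of all transcripts rose. Of 40 Notch pathway transcripts 8 rose and 5 fell (median 0.07), or 20.0% and 12.5%. The ligands dlc and dll1 rose by 0.49 ± 0.07 and 0.51 ± 0.10, and the Notch target hey1 fell by 0.47 ± 0.08 (SE, edgeR adjusted p = 3.15e-04, 0.00187 and 9.45e-04).

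Of 29 transcripts of epidermal fate genes 3 rose and 3 fell (median 0.04), where 13.9% of all transcripts rose and 13.1% fell. The 3 that rose were foxi1 and ubp1, factors of ionocytes, the other scattered cell type of the frog skin, and gata2, a ventral and epidermal factor. The log2 rise was 1.06 ± 0.14 for foxi1, 1.14 ± 0.15 for ubp1 and 1.11 ± 0.25 for gata2 (SE, edgeR adjusted p = 1.16e-04, 9.28e-05 and 0.00507). Of the marker sets for other cell types, the 4 ionocyte markers, all found, summed to 112.3 to 171.6 CPM in wild type and 211.0 to 397.7 CPM with the morpholino, with no overlap between the arms. Their medians in the 2 arms were 62.7 and 127.7 CPM for foxi1, 47.1 and 105.8 CPM for ubp1, 18.5 and 21.0 CPM for atp6v1b1 and 17.1 and 20.6 CPM for slc4a9. Taken singly, foxi1 had no overlap (ranges 44.9 to 78.0 and 85.1 to 235.7 CPM). Ubp1 overlapped (33.1 to 67.6 and 61.4 to 174.7 CPM), as did atp6v1b1 (7.63 to 27.8 and 2.45 to 36.1 CPM) and slc4a9 (8.43 to 22.0 and 1.53 to 34.0 CPM). The share of all transcripts without overlap over all 25 libraries was not computed. For epidermis, goblet cell, neural plate, blood island, muscle and germ plasm the summed ranges overlapped. Medians of single markers could differ while their ranges overlapped. Itln1 of goblet cells had medians of 70.8 and 13.2 CPM (ranges 13.1 to 163.6 and 0 to 97.0 CPM). Krt12 of epidermis had medians of 415.6 and 154.2 CPM (ranges 114.3 to 654.0 and 12.6 to 692.2 CPM). The gastrocoel roof plate sum is mostly foxj1 itself and was not used. The part of ionocyte or other cell numbers in the regulators' differences was not tested.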

How the data were processed

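The deposited tables hold, per the file headers, estimated counts and TPM for 22891 transcripts in each of 25 libraries. The authors made the estimated counts and the TPM with kallisto, per the submitters' processing notes. The authors' deposited sleuth tables hold p-values, q-values and effects on the natural log scale per hour. Against the counts they had the sign of the wild-type level minus the morpholino level (r between 0.977 and 0.984), so their sign was reversed and they were put on the log2 scale. For versions, options, build and strand setting: not given in the sources used here.

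Counts were rounded, filtered by filterByExpr over the 10 groups (16967 transcripts), scaled by TMM and fitted with edgeR 4.0.16 (quasi-likelihood) in R 4.3.3, with Benjamini-Hochberg adjustment over all transcripts of a comparison and a threshold of 0.05. SE is the log2 difference divided by the root of F. The average is the mean of the 5 hourly differences, and a slope is a straight line through an arm's 5 hours. DESeq2 1.42.0 and limma-voom (limma 3.58.1) were alternatives, as were other filters and scalings, blocks, earlier wild type and omitted libraries. The steps were tested on simulated data. Its libraries were drawn independently, so it cannot show how far same-numbered libraries that deviate together affect the p-values.

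The members and the gene lists were chosen with earlier results of these data known. Named genes are the members, the 3 smallest p-values of each list, the 5 transcripts with a symbol most like MCIDAS and foxj1 by Pearson's r and the genes beside MCIDAS. Same-numbered wild-type libraries deviated together across hours (r from 0.103 to 0.172 in all 10 pairs of hours). In the morpholino arm r was 0.124 to 0.426 for replicate 1, 0.0274 to 0.189 for replicate 2, with 7 of 10 over 0.1, and 0.25 to 0.535 for replicate 3. Across the arms 4 of 5 hours passed 0.1 for number 1 and 0 of 5 for number 2, so numbers were not taken to pair the arms.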

Additional observations from a re-analysis of the deposited data

How the results depend on the processing

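The average rise of MCIDAS, ccno, CDC20B and deup1 kept its call under each of the 25 omissions of a library (1.79 to 2.33, 1.63 to 2.36, 1.06 to 1.63 and 0.98 to 1.17 log2) and under DESeq2, limma-voom, both other filters and both other scalings. The count of regulator transcripts higher ran from 4 to 6 when a library was left out, where 8.53% to 17.5% of all transcripts rose. That count was 0 with 5 sums over hours, 1 against wild type 1 hour earlier and 0 against wild type 2 hours earlier. In these settings, in order, 0%, 3.36% and 1.2% of all transcripts rose. Against wild type 2 hours earlier CDC20B turned to -0.11 (edgeR adjusted p = 0.943). The count lower was 0 or 1 when a library was left out, where 7.69% to 16.6% of all transcripts fell. It was 1 with limma-voom, without all of morpholino replicate 3 and without the 16 hpf libraries. It was also 1 with library totals not scaled by TMM (chosen after seeing the data) and with counts summed per symbol. From limma-voom on, in the same order, 17.7%, 19.1%, 15%, 16.6% and 17.4% of all transcripts or symbols tested fell. Single-hour calls numbered 0 or 1 when a library was left out, 6 with DESeq2, 1 with limma-voom and 3 with a replicate block across both arms. Regulators changing in wild type numbered 0 to 6 when a library was left out, 7 without all of morpholino replicate 3, and 0, 1, 2 and 0 without the libraries at 12, 13, 15 and 16 hpf. In the morpholino arm they numbered 0 to 3 when a library was left out, 5 with DESeq2, 3 with limma-voom, 2 with a stricter filter, 5 with a replicate block across both arms, 3 with a replicate block within each arm, 5 without all of morpholino replicate 3, 2 with counts summed per symbol, and 0, 0, 2 and 0 without the libraries at 12, 13, 15 and 16 hpf. Among all transcripts the main fit called 2.19% of wild-type slopes and 17.7% of morpholino slopes, in either direction. Leaving out all of morpholino replicate 3 raised the share for wild-type slopes to 40.3%. DESeq2 called 0.925% to 1.82% of all transcripts at single hours. For the remaining counts of slopes and single hours listed here the share of all transcripts was not computed, so they have no background to be set against. The slope difference called 0 under all 40 alternatives, and the causes of the shifts in these counts were not tested.

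Numbers were not taken to pair the arms. Between same-numbered libraries of an hour r was 0.0625 to 0.185 for number 1 and -0.0586 to 0.0552 for number 2. A replicate block across both arms ended the average calls of foxj1 (0.17, edgeR adjusted p = 0.169) and the minor rfx2 transcript (0.73, adjusted p = 0.0573). Without TMM scaling both were lost too (0.17 and 0.66, adjusted p = 0.115 and 0.0613), and e2f4 fell by 0.35 (adjusted p = 0.0115). The rfx3 call on summed counts was lost with 5 sums over hours, without the 13 hpf libraries, at 14 to 16 hpf alone and against earlier wild type. Depth limits gmnc, with at most 10 counts in a library, and CDC20B and MCIDAS in late wild type.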
